A study of Rattus norvegicus with 65 samples.

Results

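Lrrc58 and Mcc were the 2 genes with the smallest p among those called higher in the hypothalamus of RYGB-treated than of sham-treated rats, and they were chosen by that comparison. The members are the rows of the deposited table that carry either symbol, 3 rows of 38513 in all. Lrrc58 has 1 row. Mcc has 2 rows under different identifiers, a chromosome 18 row called Mcc here and a chromosome 1 row named as such throughout. All 3 rows passed the filter on low counts, which kept 21871 genes.

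Whole hypothalamus was taken from male Wistar rats that were 9 to 10 weeks old at the start. Those of the randomized groups had 6 weeks of high-fat diet before they were randomized. They were killed 4 weeks after the intervention began, following a 10 h fast. Each of the 65 libraries came from 1 rat. The 14 RYGB rats had a Roux-en-Y gastric bypass and the 11 sham rats a sham operation. The 7 BWM (body weight-matched) rats were fed restricted amounts so that their weight followed that of the RYGB rats. The study's abstract lists them as sham plus body weight-matched, while its methods state no sham operation for them. Whether they were operated on is therefore uncertain. The remaining treated groups carried an osmotic minipump and received subcutaneous injections. The 8 saline rats had saline by both routes, the 5 liraglutide rats 0.4 mg/kg/day of this GLP-1 receptor agonist with a saline pump, the 4 PYY3-36 rats 0.1 mg/kg/day of this gut peptide from the pump with saline injections, and 10 rats both agents. Of these randomized groups, all except BWM could choose between high-fat and low-fat food. For the 6 lean rats the labels give the name of the group and no more, and their diet and treatment are not stated there. The study lists a starting weight for a low-fat-diet-only group and does not tie that group to this label. The labels give each library a batch, A with 37 libraries or B with 28, which the study describes as separate experimental periods. RYGB, sham, saline and PYY3-36 + liraglutide rats are in both batches, BWM and lean rats in batch A, and liraglutide and PYY3-36 rats in batch B.

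Libraries held between 20041010 and 36539941 counts on genes. All 17 fixed hypothalamus markers passed the filter, with Pmch, the precursor of melanin-concentrating hormone, the most abundant at a median of 563 CPM (counts scaled to one library size). In 13 libraries, spread over 7 groups, the mean log2(CPM + 1) of these markers was under 2.5, and it ran from 1.01 to 5.58 over all libraries. These low libraries include 4 of the 11 sham and 2 of the 6 lean libraries. RYGB is the group without such a library, with a lowest value of 2.967. Of 9 markers of the anterior pituitary, 4 (Prl, Fshb, Pou1f1 and Ghrhr) had a median of 0 CPM. The BWM library of replicate 5 stood apart with a pituitary score of 8.66, against a median of 1.11 in its group.

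Lrrc58 encodes a leucine-rich repeat protein. It has been described as the substrate-binding part of a cullin-RING ubiquitin ligase that marks cysteine dioxygenase (Cdo1) for degradation. That enzyme takes the first step in the breakdown of cysteine to taurine. Mcc, named for its mutation in colorectal cancers, encodes a coiled-coil protein with a C-terminal motif that binds PDZ domains, and it restrains signalling through beta-catenin in the Wnt pathway. Wnt signalling acts in the adult hypothalamus as well as in its development.

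In the Rnor_6.0 coordinates of the files, Lrrc58 (gene26265) lies on the minus strand of chromosome 11 from 65747235 to 65759558, with 1155 bases of exon. Mcc (gene34526) lies on the minus strand of chromosome 18 from 35683185 to 35817117, with 2746 bases of exon. The second Mcc row (gene123) lies on the plus strand of chromosome 1 from 12006663 to 12128849, with 601 bases of exon and the same NCBI gene number as the chromosome 18 row. Raw counts ran from 37 to 984 for Lrrc58, from 3 to 164.67 for Mcc and from 0 to 27 for the chromosome 1 row, which was at 0 in 3 libraries. Mcc counts were not whole in 46 libraries, because reads that fitted several places or features were counted as fractions. A pseudogene, LOC103694203, lies inside the Mcc row on the same strand, so reads shared with it or between both Mcc rows are uncertain.

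The stretches from 250 bases before to 50 bases after the annotated start are shown as a description of each gene. They come from RefSeq for the newer build GRCr8, which lists Mcc on chromosome 18 alone. Lrrc58 is at chr11:76368260-76368559 and Mcc at chr18:37505866-37506165, both on the minus strand and written in the direction of transcription. Capitals mark the E-box CACGTG and the GC box GGGCGG, searched on both strands.
Lrrc58: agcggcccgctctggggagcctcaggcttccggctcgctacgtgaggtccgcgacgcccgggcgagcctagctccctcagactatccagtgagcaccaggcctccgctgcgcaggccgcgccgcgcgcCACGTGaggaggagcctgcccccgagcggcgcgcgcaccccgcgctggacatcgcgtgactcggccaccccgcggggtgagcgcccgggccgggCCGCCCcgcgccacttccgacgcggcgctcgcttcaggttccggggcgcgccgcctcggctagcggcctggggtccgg
Mcc: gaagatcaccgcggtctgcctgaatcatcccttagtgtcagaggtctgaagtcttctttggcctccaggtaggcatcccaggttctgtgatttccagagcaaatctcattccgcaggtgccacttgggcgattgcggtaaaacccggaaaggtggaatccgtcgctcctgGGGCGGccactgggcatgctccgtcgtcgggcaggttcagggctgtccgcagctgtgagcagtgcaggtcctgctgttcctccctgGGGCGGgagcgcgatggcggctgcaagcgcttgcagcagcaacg

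The Lrrc58 stretch held 48 CpG dinucleotides and 78% G and C, against medians of 7 and 51.7% over 33469 rat promoters of the same length, which put it at the 99th percentile for CpG. The Mcc stretch held 19 CpG and 61% G and C. An E-box occurred once in the Lrrc58 stretch and not in the Mcc stretch, and 6.42% of all promoters held it. A GC box occurred once for Lrrc58 and 2 times for Mcc, against 33.1% of all promoters with at least 1. Neither stretch held a CCAAT box on either strand, which 37.5% of all promoters did. The TATA box, searched as TATAAA, was also absent from both and occurred in 14.2% of all promoters. The same was true of the letters TGACG, the core of the cAMP response element, which 21.2% held. These matches describe the letters alone.

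Levels are given as normalized counts, the deposited counts divided by a size factor for each library. Sham-treated rats had the lowest mean of Lrrc58 and of Mcc in both batches. RYGB-treated rats held the first or second place by mean in both batches, with PYY3-36 + liraglutide rats just above them in batch A and PYY3-36 rats next to them in batch B. Every level is of bulk tissue, in which fewer cells of a type and less RNA per cell cannot be told apart. Where groups are said below not to overlap, the share of all genes that separate the same rats is not given. Because RYGB against sham chose the genes, a separation from sham is a description and no separate support.

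In batch A, Lrrc58 was at 35.9, 60.5, 144, 176 and 340.4 normalized counts in the 5 sham rats. The 11 RYGB rats ran from 184 to 824 with a median of 432, and 9 of them were above the highest sham rat. The 3 saline rats were at 439.7, 499 and 531, all above every sham rat. Lrrc58 was thus as high in saline-treated as in RYGB-treated rats of this batch, at 490 ± 46.4 (SD, n = 3) against 502 ± 194 (SD, n = 11). PYY3-36 + liraglutide rats were at 356, 378, 488, 628 and 772, and none overlapped with sham. The 7 BWM rats ran from 149 to 654 with a median of 332, and the 6 lean rats from 89.8 to 734 with a median of 429. Both of these groups overlapped with sham. By mean the order was PYY3-36 + liraglutide, RYGB, saline, lean, BWM and sham, and the step from BWM to sham was the one that exceeded the pooled SD of the 2 groups.

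In batch B, Lrrc58 was at 62.5 to 114 with a median of 95.8 in the 6 sham rats. The 3 RYGB rats were at 346, 361 and 468, all above every sham and every saline rat. The 5 saline rats were at 106, 144, 187, 210.5 and 229, and 4 of them were above the highest sham rat. PYY3-36 rats were at 284, 312, 339 and 348, liraglutide rats at 174, 206, 273, 303 and 343, and rats on both agents at 84.5, 308, 310.3, 354 and 449. PYY3-36 rats did not overlap with saline rats, and the other 2 hormone groups did. The order by mean was RYGB, PYY3-36, PYY3-36 + liraglutide, liraglutide, saline and sham. Neighbours from PYY3-36 down to liraglutide differed by less than their pooled SD, and RYGB overlapped with PYY3-36.

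Mcc followed the same outline at lower counts. In batch A it was at 4.85, 12, 17.3, 17.7 and 57.3 normalized counts in sham rats and from 25.4 to 131 with a median of 95.4 in RYGB rats, 10 of 11 above the highest sham rat. The saline rats were at 61.5, 74.4 and 89.6 and the PYY3-36 + liraglutide rats at 62.7, 82.1, 93.8, 94 and 101, again without overlap with sham. BWM rats ran from 30 to 136 with a median of 79, and lean rats from 22.4 to 114 with a median of 63.7. The 5 groups above sham followed each other by less than their pooled SD, from 86.8 ± 15.1 (SD, n = 5) for both agents down to 67.3 ± 35.1 (SD, n = 6) for lean, while sham was at 21.9 ± 20.5 (SD, n = 5).

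In batch B, Mcc ran from 4.36 to 26.3 with a median of 16.2 in sham rats and was at 51, 60 and 60.3 in RYGB rats, without overlap. Saline rats were at 14.7, 25, 25.6, 34.5 and 36.5. PYY3-36 rats were at 50.7, 65.5, 71.5 and 88.6, above every saline rat and, by mean, above RYGB. Liraglutide rats were at 33.5, 44.4, 49.2, 66.3 and 84.9. Rats on both agents fell apart into 3 values of 62.5, 68 and 68.4 and 2 values of 17.7 and 18.2. Each neighbouring pair in the order overlapped, and the step from saline to sham was the one over the pooled SD.

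**Figure D1:**
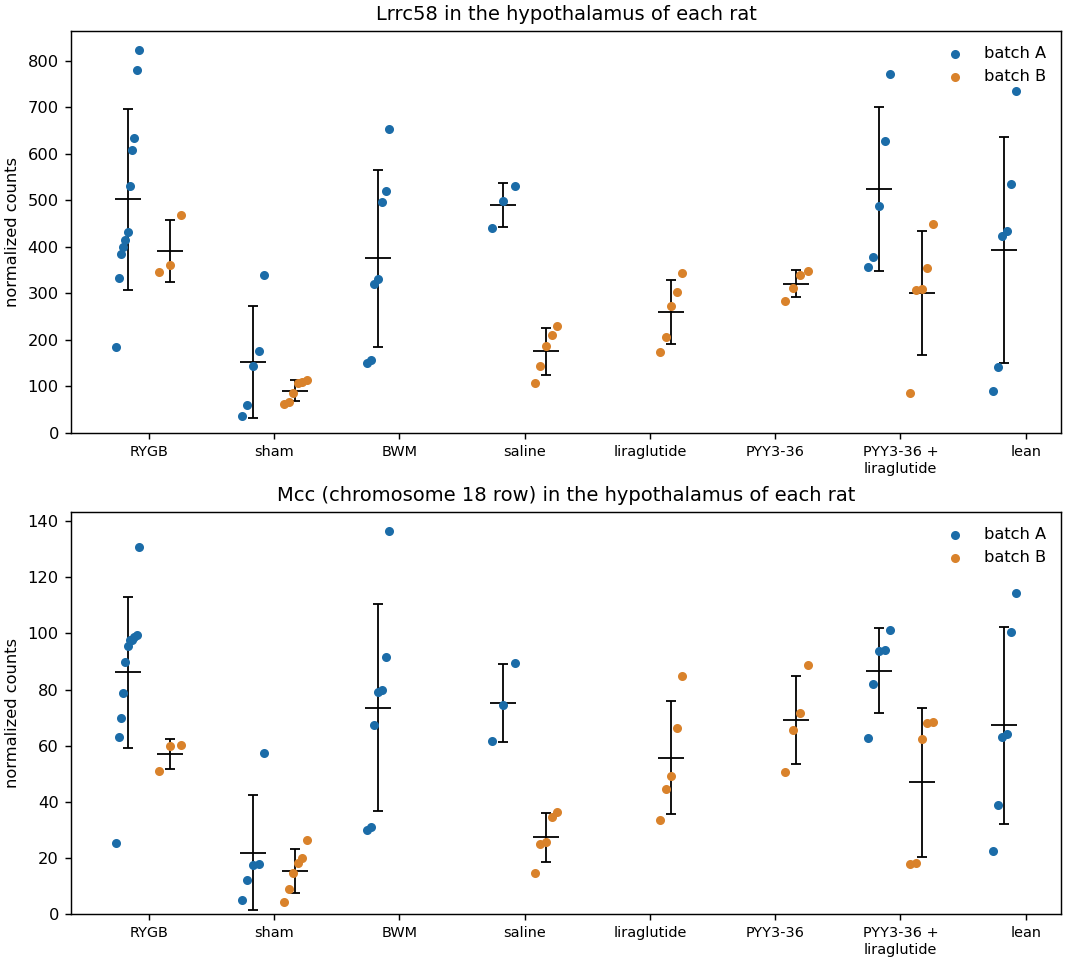
Normalized counts of Lrrc58 (top) and of Mcc, chromosome 18 row (bottom), on linear axes from 0, for each rat by group, with batch A in blue and batch B in orange. Points are single rats, and the black bar and whiskers give the mean and SD of a group within a batch. Sham-treated rats have the lowest mean in each batch, and saline-treated rats of batch A lie beside the RYGB-treated rats.

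Per kilobase of exon, Lrrc58 was the more abundant, at 414 ± 155 (SD, n = 14) normalized counts per kilobase in RYGB rats against 29.1 ± 9.74 for Mcc. The ratio of Lrrc58 to Mcc in normalized counts had a median of 5.68 over the 65 libraries and ran from 3.2 to 16.9. Its highest value belonged to a batch B rat on both agents (replicate 9), which had 308 normalized counts of Lrrc58 and 18.2 of Mcc.

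Fold changes were fitted across all genes with edgeR, with terms for group and batch, and a gene was called at an adjusted p under 0.05 with an absolute log2 fold change over 1. For RYGB against sham, log2 fold changes were 1.79 (SE 0.29, 95% interval 1.21 to 2.37) for Lrrc58 and 1.85 (SE 0.30, 1.25 to 2.45) for Mcc, or 3.46-fold and 3.61-fold. These values chose both genes and are given without a test. In this comparison 2.37% of genes were called, 437 higher and 81 lower in RYGB. By p, Mcc was rank 1 and Lrrc58 rank 2, and the next genes called higher were Scd4 at 1.22, Epas1 at 1.06, Glra3 at 2.79 and Tulp4 at 1.23 on the log2 scale. The chromosome 1 row was at rank 16170 with 0.26 (SE 0.40). Within batch A the log2 fold changes were 1.71 (SE 0.39) for Lrrc58 and 1.95 (SE 0.40) for Mcc, and within batch B 2.10 (SE 0.46) and 1.90 (SE 0.48).

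The other comparisons that use RYGB or sham libraries are likewise descriptions. BWM against sham gave 1.26 (SE 0.34) for Lrrc58 and 1.57 (SE 0.35) for Mcc on the log2 scale, lean against sham gave 1.34 (SE 0.35) and 1.46 (SE 0.36), and sham against saline gave -1.28 (SE 0.31) and -1.27 (SE 0.32). RYGB against saline gave 0.51 (95% interval -0.10 to 1.12) for Lrrc58 and 0.58 (-0.04 to 1.2) for Mcc. RYGB against BWM gave 0.53 (-0.11 to 1.16) and 0.28 (-0.34 to 0.91), and RYGB against lean 0.45 (-0.22 to 1.12) and 0.39 (-0.27 to 1.06). These comparisons share their RYGB, sham or saline libraries with each other.

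The estimate for RYGB against saline was given in each batch. For Lrrc58 it was 0.03 (SE 0.43) in batch A and 1.14 (SE 0.48) in batch B, and for Mcc 0.19 (SE 0.44) and 1.04 (SE 0.49), on the log2 scale. The difference between batches was 1.11 (SE 0.64) for Lrrc58 and 0.84 (SE 0.65) for Mcc, given without a test. Sham against saline was -1.68 (SE 0.48) and -0.96 (SE 0.41) for Lrrc58, and -1.76 (SE 0.48) and -0.86 (SE 0.44) for Mcc. RYGB against sham chose the genes, so their higher means in RYGB than in sham rats of either batch are a description and no separate support. In batch A the means of both genes in RYGB rats were close to those in saline rats.

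**Figure D2:**
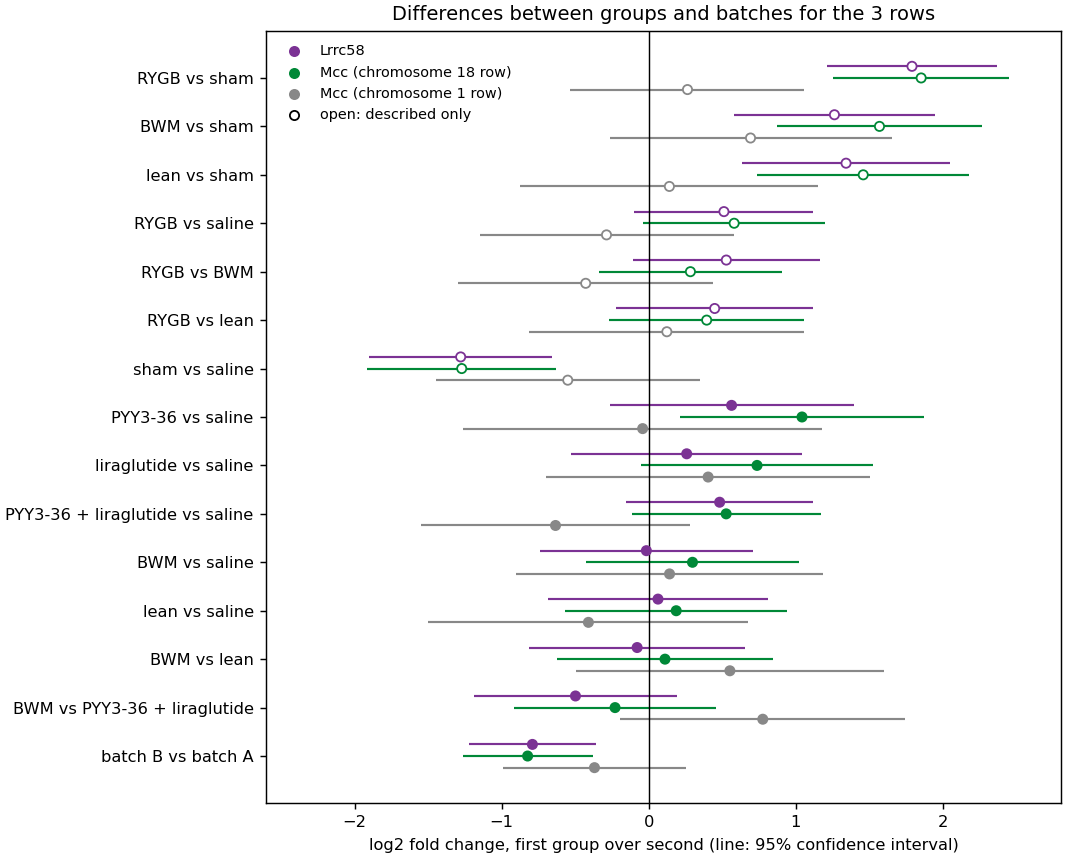
Log2 fold change (x axis, first group over second) of Lrrc58, Mcc and the Mcc chromosome 1 row in each comparison, from the fit with group and batch terms. Points are estimates, lines 95% confidence intervals, and open points comparisons of groups that include RYGB or sham and carry no test. The batch comparison was fitted on all 65 libraries, RYGB and sham included. Among the filled points those of Lrrc58 and Mcc for batch B against batch A are the lowest, at -0.79 and -0.82.

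The comparisons among the other groups did not take part in the choice of the genes. The question there was whether either gene differed with food restriction, with hormone treatment or in the lean rats. Neither Lrrc58 nor Mcc was called in any of them. The batch term and the spread were estimated from all 65 libraries, RYGB and sham included. In a fit of the other 40 libraries, Lrrc58 in BWM against saline was -0.17 in place of -0.02. PYY3-36 against saline was then 0.69 in place of 0.56 for Lrrc58 and 1.17 in place of 1.04 for Mcc. Neither gene was called in these comparisons there.

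PYY3-36 against saline gave the largest difference, 1.04 (SE 0.41, 95% interval 0.22 to 1.87) for Mcc, with p = 0.0144 and an adjusted p of 0.652 by edgeR's quasi-likelihood test. Lrrc58 was at 0.56 (SE 0.41, adjusted p = 0.702). In this comparison 0% of genes were called by edgeR, 1649 had an unadjusted p under 0.05, and DESeq2 called 4. PYY3-36 rats are in batch B alone, and against the saline rats of that batch they had 1.83-fold the mean normalized count of Lrrc58 and 2.53-fold that of Mcc. All 4 were above every one of 5 saline rats for both genes. The share of all genes that separate these rats in this way is not given. Both genes are correlated with each other, so they do not count as separate observations. A two-sided exact permutation test on log2(CPM + 1) gave p = 0.0159 for each, the smallest that 4 against 5 rats allow. Adjusted over the 7 within-batch comparisons of a gene, p was 0.111 for Lrrc58 and 0.0833 for Mcc.

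Liraglutide against saline was at 0.26 (SE 0.39, adjusted p = 1) for Lrrc58 and 0.74 (SE 0.39, adjusted p = 1) for Mcc by edgeR, again with 0% of genes called, 456 at an unadjusted p under 0.05 and 3 called by DESeq2. Within batch B, Mcc was 2.04-fold the saline mean and above the saline median in 5 of 5 rats (exact permutation p = 0.0238, adjusted 0.0833). Lrrc58 was 1.48-fold (exact permutation p = 0.0794, adjusted 0.278). Both agents together against saline gave 0.48 (SE 0.32) for Lrrc58 and 0.53 (SE 0.32) for Mcc (adjusted p = 1 for each, edgeR), where 0.00457% of genes were called. That effect was 0.10 (SE 0.48) in batch A and 0.78 (SE 0.43) in batch B for Lrrc58, and 0.21 (SE 0.48) and 0.78 (SE 0.44) for Mcc. The difference between batches was 0.68 (SE 0.64) and 0.57 (SE 0.65) on the log2 scale, and edgeR's interaction test gave an adjusted p of 1 for each.

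BWM against saline gave -0.02 (95% interval -0.74 to 0.71) for Lrrc58 and 0.30 (-0.43 to 1.02) for Mcc, with 0.0412% of genes called. Lean against saline gave 0.06 (-0.69 to 0.81) and 0.19 (-0.57 to 0.94), with 0% of genes called by edgeR, 375 at an unadjusted p under 0.05 and 2 called by DESeq2. BWM against lean gave -0.08 (-0.82 to 0.66) and 0.11 (-0.62 to 0.85), with 0.0274% called, and BWM against both agents -0.50 (-1.19 to 0.19) and -0.23 (-0.91 to 0.46), with 0.32% called. In edgeR, adjusted p for these 8 values ran from 0.465 to 1. The intervals leave room for differences of about 1 on the log2 scale in either gene.

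Both genes were lower in batch B than in batch A. With group in the model the log2 difference was -0.79 (SE 0.21, adjusted p = 0.00231, edgeR) for Lrrc58 and -0.82 (SE 0.22, adjusted p = 0.00205) for Mcc. Since neither passed 1, they were not among the 5% of genes called. The chromosome 1 row was at -0.37 (SE 0.31, adjusted p = 0.36). These fits include the RYGB and sham libraries. In the 40 libraries of the other groups the differences were -1.08 (adjusted p = 0.00642) and -1.11 (adjusted p = 0.00374), past both thresholds. Saline rats of batch B had 0.358 times the mean normalized count of batch A for Lrrc58 and 0.362 times that for Mcc, with no overlap (exact permutation p = 0.0357 for each, the smallest that 5 against 3 allow, adjusted 0.0556 and 0.0357). In rats on both agents the ratios were 0.574 (exact permutation p = 0.0556) for Lrrc58 and 0.541 (exact permutation p = 0.0317) for Mcc. Batches also differed in depth, with medians of log10 total count in saline rats of 7.47 in A and 7.36 in B. In sham and RYGB rats these medians were 7.465 and 7.47 in A, and 7.332 and 7.419 in B.

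The chromosome 1 row of Mcc did not share this pattern. It had a mean of 10.7 ± 5.84 (SD, n = 11) normalized counts in RYGB and 10.2 ± 6.68 (SD, n = 5) in sham rats of batch A, and 11.1 ± 8.57 (SD, n = 3) and 6.68 ± 6.28 (SD, n = 6) in batch B. Every neighbouring pair of groups overlapped, and no step in the order exceeded the pooled SD. Its highest group mean was 15.6 ± 6.83 (SD, n = 7) in BWM. No comparison called it, and its smallest edgeR p was 0.115, for BWM against both agents (0.78, SE 0.48, adjusted p = 0.413).

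**Figure D3:**
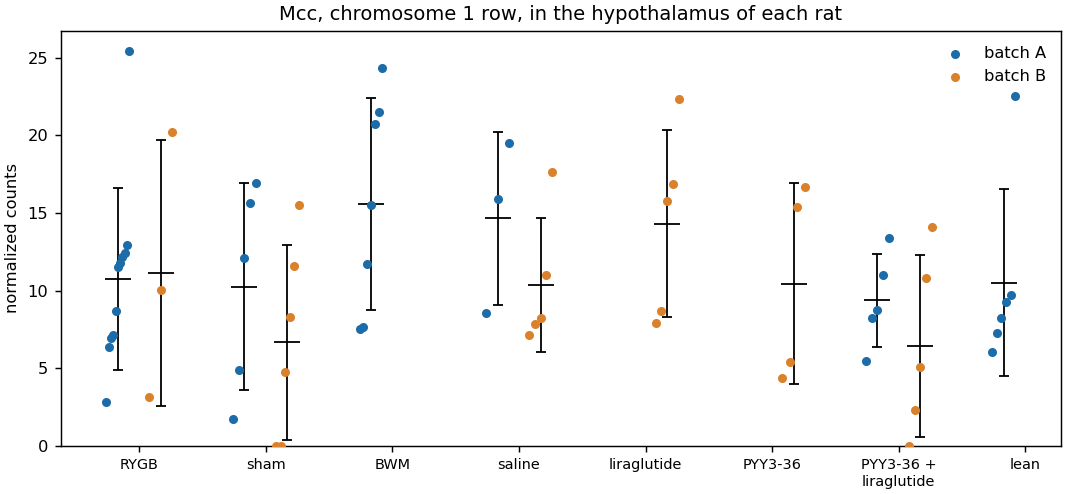
Normalized counts of the Mcc chromosome 1 row on a linear axis from 0, for each rat by group, with batch A in blue and batch B in orange. The black bar and whiskers give the mean and SD of a group within a batch. Groups overlap throughout, and 3 libraries are at 0.

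Lrrc58 and Mcc rose and fell together from rat to rat. Over the 40 libraries outside RYGB and sham, with log2(CPM + 1) centred within each batch, Pearson's r was 0.838 and Spearman's rho 0.79 (permutation p = 1e-05 for each, the smallest that 100000 resamples can give). Within batch A r was 0.926 (n = 21) and within batch B 0.743 (n = 19), and without the 2 libraries farthest from the median of Lrrc58 it was 0.795. Centring within group and batch left r at 0.833, a value pooled over the groups, and r was not computed within any single group. The Mcc rows did not correlate with each other (r = -0.03, permutation p = 0.87), nor did Lrrc58 with the chromosome 1 row (r = -0.02, permutation p = 0.9).

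Both genes also moved with 2 library-wide measures and with astrocyte markers, and Mcc with microglia markers. The ribosomal protein score, the mean log2(CPM + 1) of 84 genes of the cytosolic ribosome, correlated with Lrrc58 at r = -0.808 (rho -0.726) and with Mcc at r = -0.658 (rho -0.544) over the same 40 libraries. Adjusted over 51 relations, permutation p was 0.00034 and 0.000383. Within batches r was -0.814 and -0.809 for Lrrc58 and -0.741 and -0.582 for Mcc, and without the 2 farthest libraries -0.732 and -0.545. The share of counts on mitochondrial rRNA and tRNA correlated at r = -0.666 and -0.621 (adjusted permutation p = 0.00034 for each). Its median in batch B was 2.055% in sham (1.265 to 3.187) and 0.9835% in RYGB rats (0.8805 to 1.2). In batch A the medians were 1.197% and 0.8477%. What part this share had in the results was not tested. In batch B the median ribosomal protein score was 7.63 in sham, 7.29 in saline and 7.03 in RYGB rats, and in batch A 7.16, 6.94 and 6.86. Ranges overlapped in batch A, where the single highest score (8) belonged to an RYGB rat.

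With the ribosomal protein score as a further term, RYGB against sham was 1.19 on the log2 scale for Lrrc58 and 1.33 for Mcc, below the 1.79 and 1.85 without it. RYGB against BWM was 0.028 for Lrrc58 in place of 0.53, both agents against saline 0.042 in place of 0.48, and PYY3-36 against saline 0.20 in place of 0.56, while Mcc in PYY3-36 against saline was 0.74 in place of 1.04. The batch difference was then -0.07 for Lrrc58 (adjusted p = 0.790, edgeR) and -0.20 for Mcc (adjusted p = 0.457). With the score taken out of both genes, the correlation of Lrrc58 with Mcc was r = 0.691 over the 40 libraries (permutation p = 1e-05). What sets the score was not tested.

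The astrocyte score, a mean log2(CPM + 1) over 7 of 7 listed markers, correlated with Lrrc58 at r = 0.539 (adjusted permutation p = 0.00527) and with Mcc at r = 0.523 (adjusted permutation p = 0.00469). The score of 7 microglia markers correlated with Mcc at r = 0.48 (adjusted permutation p = 0.0138), and with Lrrc58 r was 0.369 (adjusted permutation p = 0.142). The astrocyte score ran from 7.86 to 8.08 in sham and from 7.99 to 8.54 in RYGB rats of batch A, and from 8.05 to 8.58 and 8.60 to 8.70 in batch B. Their part in the results was not tested. Scores of the hypothalamus (r = 0.003 and -0.06) and of the anterior pituitary (r = -0.03 and 0.05) were near 0 with both genes. The meninges score, a mean over rows of 9 markers, ran from 2 to 3.01 in sham rats of batch A, with medians of 2.39 in sham, 4.82 in RYGB, 5.34 in BWM and 4.94 in lean rats. In batch B its median was 3.43 in sham and 3.30 in RYGB rats. Over the 40 libraries it correlated with Lrrc58 at r = 0.01 (adjusted permutation p = 0.99) and with Mcc at r = 0.21 (adjusted permutation p = 0.44). What part the meninges score had in the results was not tested.

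Without the 13 libraries low in hypothalamus markers, RYGB against sham was 2.10 for Lrrc58 and 1.99 for Mcc on the log2 scale. Lean against sham was then 1.89 and 1.80, from 1.34 and 1.46 with all libraries. Lean against saline was 0.35 and 0.51, from 0.06 and 0.19, with an adjusted p of 1 in edgeR for each.

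**Figure D4:**
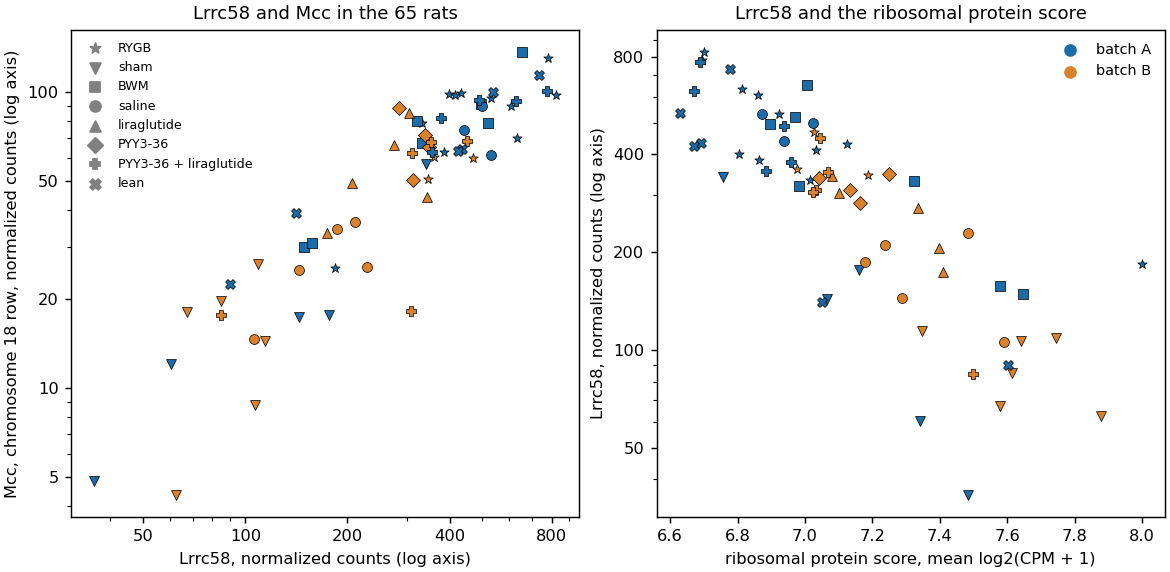
Left, Mcc (chromosome 18 row) against Lrrc58 in normalized counts for each of the 65 rats, both on log axes. Right, Lrrc58 in normalized counts on a log axis against the ribosomal protein score in mean log2(CPM + 1). Symbols give the group and colors the batch. Mcc rises with Lrrc58, with most sham rats at the lower left, and Lrrc58 falls as the score rises.

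Over all 65 libraries, with batch centred, Lrrc58 was the gene most like Mcc among 21870 others (r = 0.898), and Mcc was the 53rd most like Lrrc58. This measure uses the RYGB and sham libraries and is a description. The 5 genes most like Lrrc58 were Scarb2, a lysosomal membrane protein (r = 0.948), Cds2, which makes CDP-diacylglycerol (0.946), Tulp4 (0.944), the ubiquitin ligase Mib1 (0.94) and the Golgi protein Glg1 (0.937). After Lrrc58, those most like Mcc were Epas1, a hypoxia-inducible transcription factor (0.891), Mib1 (0.861), Scarb2 (0.861) and Rxra, a nuclear receptor (0.857). Genes with r over 0.7 made up 4.18% of all for Lrrc58 and 2.43% for Mcc. The chromosome 1 row had no such gene, and Gdpd4 was most like it at r = 0.537.

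Lists of genes around each member's known role were counted beside it. In the cysteine and taurine list (22 genes tested), RYGB against sham called 0 genes, beside 2.37% of all genes, while 4 were higher and 2 lower at an adjusted p under 0.05 alone. Values ran from -0.44 for Cdo1 to 0.98 for Mtr, with a median of 0.06 against -0.02 over all genes. Cdo1, the reported target of Lrrc58, was at -0.44 (SE 0.14) there, at -0.04 (SE 0.19) in BWM against saline and at -0.03 (SE 0.22) in PYY3-36 against saline. Mtr, methionine synthase, was the 1 of 22 genes called in batch B against batch A (-1.18, SE 0.17, adjusted p = 7.41e-08, edgeR), beside 5% of all genes. Of the cullin-RING core, 19 genes were tested. Their values in RYGB against sham ran from -0.39 for Tceb2, now named Elob, to 0.32 for Cand1, with a median of -0.04.

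Of 43 genes of the Wnt and beta-catenin list tested, RYGB against sham called the receptor gene Fzd5 higher (1.55, SE 0.39), or 1 of 43 beside 2.37% of all genes, with a list median of 0.12. Ctnnb1, which encodes beta-catenin, was at -0.02 (SE 0.06), and Apc, the scaffold that promotes its degradation, at 0.06 (SE 0.14). In batch B against batch A these were at 0.18 (SE 0.04, adjusted p = 0.000736, edgeR) and -0.48 (SE 0.11, adjusted p = 0.000467). Of 18 genes for PDZ scaffolds and cell polarity, values in RYGB against sham ran from -0.26 for Pard6a to 0.82 for Msn. Among 58 other Lrrc genes tested, RYGB against sham called 2, beside 2.37% of all genes, Lrrc75b as higher (1.62, SE 0.35) and Lrrc10b as lower (-1.76, SE 0.56).

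In the 7 comparisons among the groups outside RYGB and sham, edgeR called 0 of the 160 genes tested on these 5 lists, and DESeq2 called 0. Over all genes, edgeR called between 0% and 0.32% in these comparisons. Per comparison, between 0 and 7 genes of a list had an unadjusted p under 0.05 in edgeR, beside 375 to 3675 of all 21871 genes.

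The 5 genes on either side of each row were also looked up, as a description. Beside Lrrc58, 9 of 10 neighbours passed the filter, and RYGB against sham called none of them, beside 2.37% of all genes. Ndufb4, a subunit of respiratory complex I, ran opposite to Lrrc58 over the 65 libraries (r = -0.848) and was at -0.44 (SE 0.11) in RYGB against sham. Beside Mcc, 4 of 10 passed, and RYGB against sham called 1 of them, beside 2.37% of all genes. So few neighbours do not allow a statement about the region. That was Dcp2, an mRNA decapping enzyme, which moved with Mcc (r = 0.732) and was at 1.14 (SE 0.27) in RYGB against sham and at -0.77 (SE 0.20) in batch B against batch A. LOC100912151 moved with Mcc as closely (r = 0.749) and was at 0.72 (SE 0.14) and -0.09 (SE 0.11), and LOC100363323 ran opposite (r = -0.632). Beside the chromosome 1 row, 4 of 10 passed and none followed that row, with r from 0.0069 for LOC100909599 to 0.198 for LOC102548015. RYGB against sham called 1 of these 4, LOC100909599, as higher (1.08, SE 0.27), beside 2.37% of all genes.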

How the data were processed

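Total RNA of whole hypothalamus was sequenced as stranded poly(A) libraries with single 75-base reads. The authors trimmed reads with cutadapt (version 1.16 in the submitters' processing notes, with later versions beside it in the study's methods), aligned them with STAR 2.7.2b to Rnor_6.0 and counted them by strand with featureCounts 1.6.4. The authors' table holds estimated counts per gene, not normalized, because reads that fitted several places or features were counted as fractions. Of values above 0, 30.3% were not whole. They were rounded, which changed a library's total by at most 0.001%. The symbol Mcc has 2 rows, which were kept apart by identifier.

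The 65 libraries were grouped by their labels. Genes were kept by edgeR's filter on low counts (minimum count 10, minimum total 15). All 65 libraries were fitted with edgeR 4.0.16 (R 4.3.3, limma 3.58.1) using TMM size factors, terms for group and batch, and the quasi-likelihood test with Benjamini-Hochberg adjustment over 21871 genes. DESeq2 1.42.0 was an alternative. On simulated data for BWM against saline, 78% of 200 genes changed by 2 on the log2 scale were recovered, with 6 false calls among 21662 genes. The tested differences of Lrrc58 and Mcc were smaller than 2, and recovery at their size was not simulated. Within batches, log2(CPM + 1) was compared by exact permutation tests, two-sided (Python 3.11.15, scipy 1.17.1). Correlations used 100000 permutations.

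Lrrc58, Mcc and the gene lists were chosen with earlier results of these data known. The named genes were the member rows, listed genes that were called or that bounded a list's range, Cdo1, Apc and Ctnnb1, and the 5 genes most like each row. Neighbours of the rows, and the genes ranked next by p, were named after their values were seen. The alternatives tried were other size factors, no filter, no batch term, a replicate block, the ribosomal protein score as a covariate, batches alone, leaving out groups or single libraries, DESeq2 and a pseudocount of 0.1. Restricting the libraries by hypothalamus score and taking the ribosomal score out of the correlation were added after seeing the data. No pair of libraries was identical. The labels give each library a replicate number within its group, taken here as 1 rat. Tests of differences set them against the spread between rats.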

Additional observations from a re-analysis of the deposited data

Results flagged for a closer look

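In 27 groups of 4 to 10 rats the highest and lowest values were compared with the rest, and chance alone marks about 1 in 20 groups. Both results below were marked by a single rat far above its group. Mcc (chromosome 18 row) was at 57.3 normalized counts in sham replicate 1 of batch A, while the nearest rat was at 17.7 and the lowest at 4.85, so the gap took up 0.755 of the range against a critical value of 0.71. Without that rat, RYGB against sham was 2.16 for Mcc and 2.04 for Lrrc58 on the log2 scale. The chromosome 1 row of Mcc was at 22.5 normalized counts in lean replicate 3, with the nearest rat at 9.69 and the lowest at 6.04, a gap of 0.778 against a critical value of 0.625. Without that rat, lean against sham for this row was -0.21 in place of 0.14.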

How the results depend on the processing

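RYGB against sham chose both genes, so its values under the alternatives are a description and no separate support. They ran from 1.19 to 2.12 for Lrrc58 and from 1.33 to 2.10 for Mcc. With single rats left out they ran from 1.66 to 2.04 and from 1.71 to 2.16. The value of 1.33 for Mcc came with the ribosomal protein score as a covariate. The following values are log2 fold changes in the order first group against second, and the causes were not tested. With that covariate, Lrrc58 was at 0.30 in BWM against saline, -0.32 in lean against saline, 0.63 in BWM against lean, 0.26 in BWM against PYY3-36 + liraglutide and 0.53 in lean against sham, and Mcc at -0.10 in lean against saline, 0.40 in BWM against PYY3-36 + liraglutide, -0.15 in RYGB against BWM and 0.80 in lean against sham. Without the batch term, Lrrc58 was at 0.34 in BWM and -0.18 in liraglutide against saline, and Mcc at 0.12 in BWM against PYY3-36 + liraglutide. Lrrc58 in BWM against saline was at 0.0001 without the filter and 0.0002 by DESeq2. In batch A alone, lean against saline was -0.31 for Lrrc58 and -0.15 for Mcc, BWM against saline -0.018 for Mcc and sham against saline -1.76 for Mcc. In batch B alone, RYGB against saline was 1.16 for Lrrc58, 1.05 for Mcc and 0.10 for the chromosome 1 row, whose RYGB against sham was 0.73. In the 40 libraries outside RYGB and sham, lean against saline was -0.081 for Lrrc58, and batch B against batch A passed both thresholds at -1.08 and -1.11. With libraries restricted by hypothalamus score (added after seeing the data), Mcc in BWM against lean was -0.12.

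The replicate block changed no call of Lrrc58 or of either Mcc row, while the number of all genes called fell from 9, 6 and 70 to 0 in BWM against saline, lean and both agents, and from 518 to 420 in RYGB against sham. Replicate numbers do not pair the rats, since 9 of 65 libraries correlated best with a library of their own number and the median correlation over 171 same-number pairs was 0.02. With the replicate block, Lrrc58 in BWM against saline was 0.0098, and the chromosome 1 row was at -0.078 in BWM and 0.27 in PYY3-36 against saline, -0.050 in RYGB against sham and -0.67 in RYGB against saline. The batch difference was then -0.56 for Lrrc58 (adjusted p = 0.338, edgeR) and -0.51 for Mcc (adjusted p = 0.355).

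Leaving out single rats gave -0.19 to 0.12 for Lrrc58 and -0.0076 to 0.26 for the chromosome 1 row in BWM against saline, -0.21 to 0.28 for Lrrc58 and -0.023 to 0.37 for Mcc in lean against saline, and -0.39 to 0.20 for the chromosome 1 row in PYY3-36 against saline. In BWM against lean it gave -0.30 to 0.19 for Lrrc58 and -0.093 to 0.32 for Mcc, and for the chromosome 1 row -0.029 to 0.48 in RYGB against lean and -0.21 to 0.30 in lean against sham. The batch difference ran from -0.85 to -0.66 for Lrrc58 and from -0.88 to -0.67 for Mcc. On normalized counts the adjusted exact permutation p was 0.878 for Lrrc58 in BWM against lean and 0.952 for the chromosome 1 row in PYY3-36 against saline, both with the opposite sign, and 0.0476 for Lrrc58 between batches in saline rats and in rats on both agents. With centring within group and batch, 3 of the 5 genes most like Lrrc58, 1 of 5 for Mcc and 2 of 5 for the chromosome 1 row were shared. Counts of called genes moved more. RYGB against sham called 518 genes, from 35 with the ribosomal covariate to 1187 without the batch term, and batch B against batch A 1094, from 627 to 2099. BWM against saline called 9 (0 to 70), BWM against lean 6 (0 to 19) and BWM against both agents 70 (0 to 233). Without BWM replicate 5 these were 0, 0 and 1, and without BWM replicate 1 they were 26, 71 and 286. RYGB against sham called 337 without sham replicate 5.

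Low counts limit the chromosome 1 row, and groups of 3 to 6 rats within a batch limit the permutation tests.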
